A study of Mus musculus with 48 samples.

Results

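Microglia sorted from the brains of old mice after their microglia had been removed and had grown back were set against microglia sorted from young mice. The members are the 8 libraries labelled old repopulated and the 8 labelled young, 16 of the 48 libraries of the series, and all genes were considered. All mice were C57BL/6 wild-type males. The repopulated mice were 23 months old and received an inhibitor of Csf1r for 5 days, then 7 days of recovery, and the young mice were 3 months old and received vehicle. Age and treatment both differ between the groups and cannot be told apart in this comparison. For that reason the medians of 8 further libraries are given beside it, from microglia of mice 23 months old that received vehicle, called old here. The comparisons with young and with old use the same repopulated libraries. The question is how far newly grown microglia of an old brain remain from the young state. Cells were sorted as Cd11b and Cd45 positive, which border macrophages, monocytes and neutrophils also are. The sources used here give neither the Cd45 level of the gate, nor the share of microglia that was removed, nor whether each library is 1 mouse, so p-values measure the spread between libraries.

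Microglia are the resident macrophages of the brain. They depend on the receptor Csf1r for survival, so an inhibitor removes most of them, and when it is withdrawn the remaining cells divide and refill the brain. Their resting state rests on transcription factors such as Sall1 and on TGF-beta from the tissue, and is marked by sensing receptors such as P2ry12 and Cx3cr1. In ageing, demyelination and around amyloid plaques, microglia lower these genes and raise a lysosomal and lipid-handling program known as the disease-associated state, and a further group raises genes induced by type I interferon.

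Total counts ran from 23808223 to 31414974 in repopulated and from 28373152 to 34496308 in young libraries. Levels are in CPM, reads of a gene relative to all reads of its library after TMM scaling, and are not divided by gene length. Fold changes and adjusted p-values come from edgeR's quasi-likelihood test with Benjamini-Hochberg adjustment over the 14382 genes tested, and a gene was called at an adjusted p under 0.05. In repopulated against young microglia 4698 genes were called (32.7% of those tested), 2321 higher (16.1%) and 2377 lower (16.5%). At least a 2-fold difference was seen in 875 higher genes (6.08%) and 259 lower ones (1.8%). All 8 repopulated libraries lay above all 8 young ones for 1036 genes (7.2%) and below them for 843 (5.86%). Against old microglia 2336 genes were called (16.2%), 1301 higher (9.05%) and 1035 lower (7.2%). The list counts below are to be read beside these shares, and a count near them says nothing particular about its list. The balance of calls depended on the scaling in both comparisons. Total-count scaling gave 1740 higher and 3735 lower against young and 592 higher and 2779 lower against old, and log2(TPM + 1) gave 1217 higher and 6108 lower against young and 504 higher and 4211 lower against old. On the first principal component (40.8% of the variance) repopulated libraries lay between 5.19 and 24.1, old ones between 6.77 and 21.3 and young ones between -31.4 and -21.4. On the second (22.5%) repopulated libraries lay between -0.13 and 33.8, old ones between -28.7 and -3.98 and young ones between -9.25 and 6.47. The young range overlapped both others there. The median log2 fold change over all genes was -0.06 with TMM, -0.19 with total-count scaling and -0.32 on log2(TPM + 1). Small changes therefore turn with the scaling, and counts or medians on other scales are given beside many of the lists whose balance of calls moved. Of the 97 named genes not called against young, 20 were called lower with total-count scaling and 56 on log2(TPM + 1). For genes given with their CPM ranges, the repopulated and young ranges did not overlap where the gene was called, unless overlap is stated, and overlapped where it was not called.

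**Figure D1:**
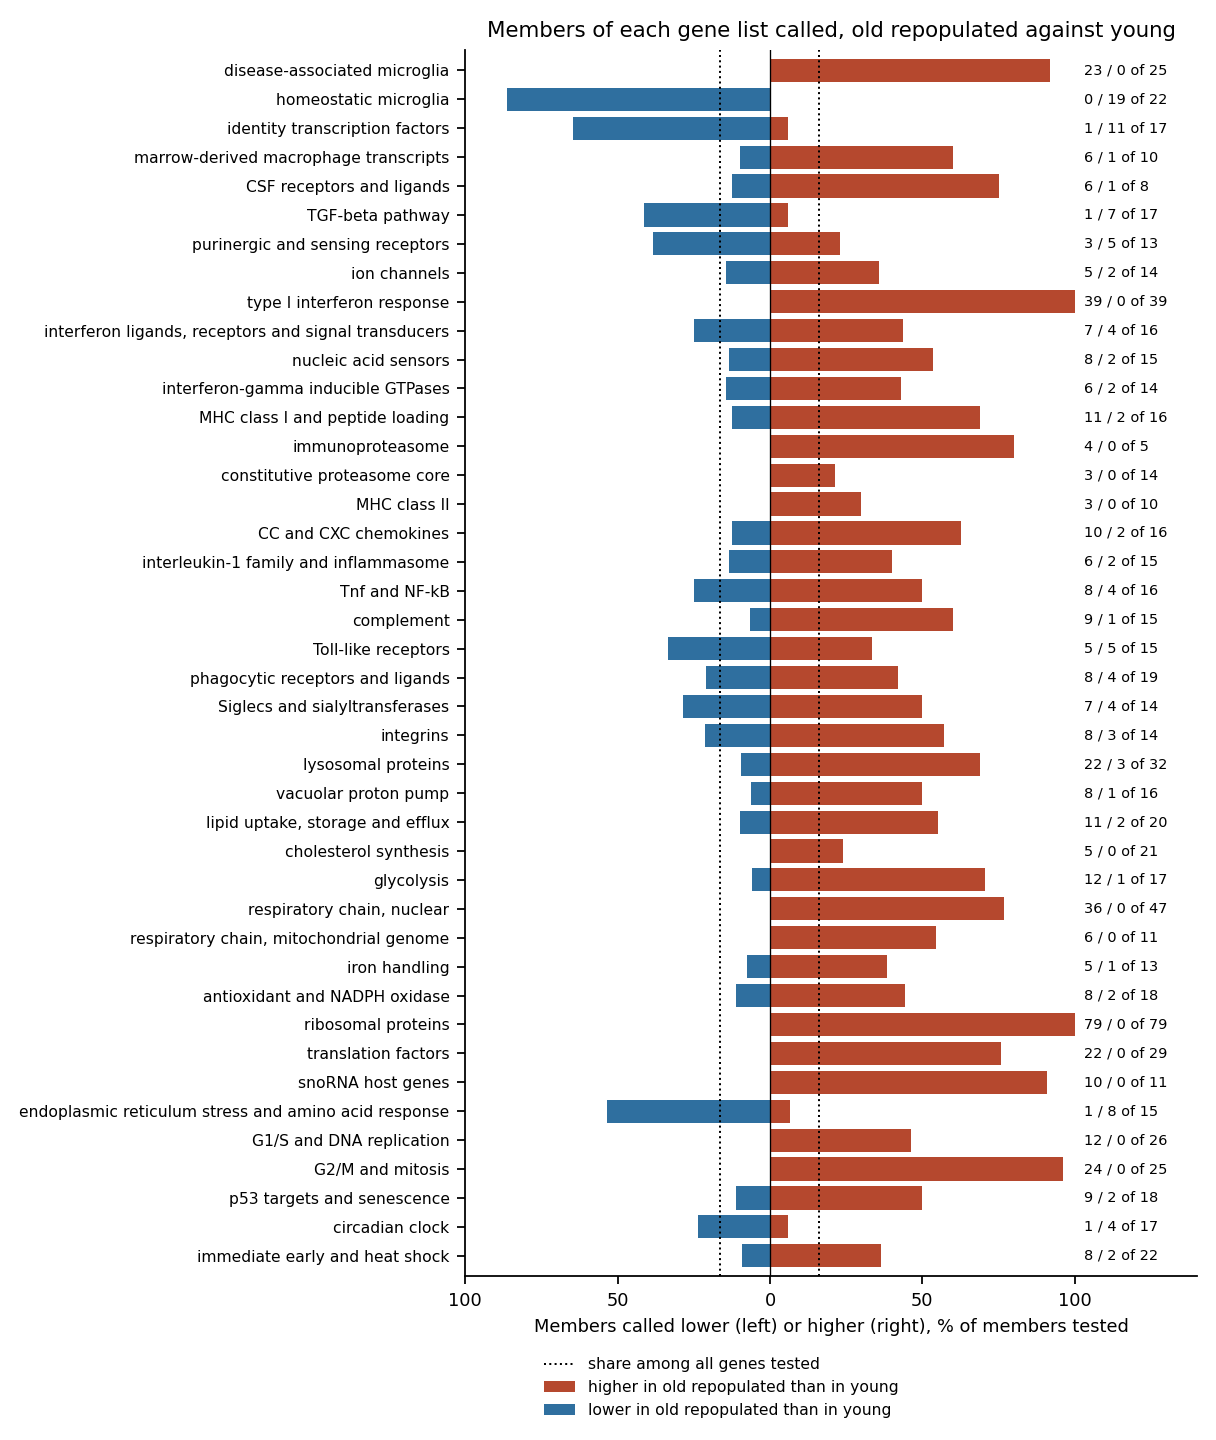
Percentage of the tested members of each gene list that were called higher (right) or lower (left) in old repopulated than in young microglia, with the numbers higher and lower of those tested printed at the right. Dotted lines mark the shares among all 14382 genes, 16.1% higher and 16.5% lower. The type I interferon and ribosomal protein lists reach the right edge with 39 of 39 and 79 of 79 members, and the homeostatic list extends furthest to the left with 19 of 22.

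The genes of the resting state were lower in repopulated than in young microglia. Of 22 homeostatic genes 19 fell and 0 rose, against 16.5% lower and 16.1% higher among all genes, and 17 had repopulated libraries all below the young ones. The median of the list was -0.67 on the log2 scale. P2ry13, a receptor for ADP, stood at 913 to 1543 CPM (median 1346) in repopulated libraries, against 2523 to 3105 CPM (median 2831) in young ones. The ranges did not overlap, and the level was 2.16-fold lower in repopulated microglia (log2 fold change -1.11, SE 0.09, adjusted p = 2.37e-11). P2ry12, the related receptor that steers microglial processes towards injury, was at 1564 to 2846 CPM (median 2223) in repopulated libraries and 3849.7 to 5092 CPM (median 4068) in young ones. All repopulated libraries were again lower (log2 fold change -0.93, SE 0.10, adjusted p = 5.04e-09). Fcrls, an Fc receptor-like protein used as a microglial marker, was at 2657 to 3083 CPM (median 2819) in repopulated and 4356 to 5116 CPM (median 4749) in young libraries, a fall of narrow spread (log2 fold change -0.76, SE 0.05, adjusted p = 5.63e-13). Jam2, a junctional adhesion molecule, was at 52.4 to 81.8 CPM (median 71.9) in repopulated libraries, against 129 to 148 CPM (median 139) in young libraries (log2 fold change -0.96, SE 0.08, adjusted p = 1.72e-11). In bulk libraries, fewer cells that carry a transcript and less of it per cell cannot be told apart. The fall did not take in all members. Sparc, a secreted matrix protein, stood at 5942 to 7504 CPM (median 6761) in repopulated and 5379 to 6650.3 CPM (median 5981) in young libraries and was not called (log2 fold change 0.14, SE 0.06, adjusted p = 0.073), but it was called higher with DESeq2 size factors (0.18) and lower on log2(TPM + 1) (-0.18). Against old microglia the same list had 4 members higher and 6 lower, against 9.05% higher and 7.2% lower among all genes. Scaling to total counts gave 2 higher and 15 lower, and log2(TPM + 1) 2 higher and 16 lower. Cx3cr1, the fractalkine receptor, was at 4661 to 6802 CPM (median 6562) in repopulated libraries, with an old median of 8175 CPM, and was among the lower ones (log2 fold change -0.42, SE 0.07, adjusted p = 8.06e-05, repopulated against old). Sparc had an old median of 4450.0 CPM and was higher in repopulated libraries (log2 fold change 0.57, SE 0.06, adjusted p = 6.21e-08).

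The transcription factors that define microglia followed the same direction. Of 17 factors 11 fell and 1 rose, with a median of -0.40 (14 and 0 on log2(TPM + 1)). Sall1, which keeps microglia apart from other macrophages, was at 526.4 to 798 CPM (median 722) in repopulated and 972 to 1212 CPM (median 1123) in young libraries. The groups did not overlap (log2 fold change -0.68, SE 0.08, adjusted p = 1.03e-07). Its relative Sall3 was at 64.3 to 102.7 CPM (median 92.5) in repopulated and 147 to 172 CPM (median 161) in young libraries, 1.81-fold lower (log2 fold change -0.85, SE 0.10, adjusted p = 7.48e-08). Runx1 and Fli1, factors of blood and myeloid development, were lower by smaller steps (-0.43 and -0.47 on the log2 scale, adjusted p = 2.23e-06 and 5.68e-07). Bhlhe41, a repressor of the clock family that macrophages use, was the riser at 175 to 202 CPM (median 193) in repopulated and 146 to 187 CPM (median 154) in young libraries (log2 fold change 0.28, SE 0.06, adjusted p = 0.000556), but its ranges overlapped, it was not called with total-count scaling and its difference was -0.04 on log2(TPM + 1). Not all factors passed the test. Irf8, which macrophage development needs, was at 565 to 606 CPM (median 573) in repopulated and 519.6 to 635 CPM (median 570.2) in young libraries (log2 fold change 0.02, SE 0.05, adjusted p = 0.772), and Spi1, Klf2 and Klf4 were not called either. Against old microglia Sall1 did not pass the test (log2 fold change -0.09, SE 0.08, adjusted p = 0.504), though it was called lower with total-count scaling (-0.26) and on log2(TPM + 1) (-0.35). Of the factors 5 were lower than in old, Runx1 among them (log2 fold change -0.32, SE 0.06, adjusted p = 0.00053), and the number was 12 with total-count scaling and 15 on log2(TPM + 1).

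TGF-beta signalling holds this factor program in place. Of 17 genes of the pathway 7 fell and 1 rose (median -0.38; 11 and 0 of 16 on log2(TPM + 1)), and the members that fell were Tgfb1, Tgfbr1, Smad2, Smad3, Ski, Nrros and Itgav. Nrros, which anchors latent TGF-beta on microglia, was at 194 to 253 CPM (median 211) in repopulated and 267 to 352 CPM (median 307) in young libraries, with no overlap (log2 fold change -0.52, SE 0.07, adjusted p = 1.05e-06). Smad3, a transducer of the receptor, was at 109 to 178 CPM (median 154) in repopulated and 198 to 249 CPM (median 229) in young libraries, also without overlap (log2 fold change -0.60, SE 0.09, adjusted p = 5.19e-06). Tgif1, a corepressor of Smad proteins, was the member that rose, at 43.8 to 62 CPM (median 49.4) in repopulated and 25.7 to 38.7 CPM (median 34.9) in young libraries (log2 fold change 0.55, SE 0.09, adjusted p = 1.57e-05), and this was not called on log2(TPM + 1). Tgfbr2, the ligand-binding receptor chain, was at 856 to 1061 CPM (median 987) in repopulated and 945 to 1156 CPM (median 1068) in young libraries and was not called (log2 fold change -0.11, SE 0.07, adjusted p = 0.209).

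The receptor targeted by the inhibitor, its ligands and receptor chains for other cytokines moved in different directions. Csf1r stood at 14905 to 17192 CPM (median 16819.9) in repopulated and 17293 to 21249.7 CPM (median 20434) in young libraries. The highest repopulated library was just under the lowest young one (log2 fold change -0.28, SE 0.06, adjusted p = 0.000197), and the old median was 14029 CPM (log2 fold change 0.25, SE 0.06, adjusted p = 0.00191, repopulated against old). That call against old was lost with total-count scaling (0.08) and on log2(TPM + 1) (-0.00). Csf1, a ligand of Csf1r, was at 102 to 151 CPM (median 132) in repopulated and 34 to 46.3 CPM (median 37.8) in young libraries, 3.27-fold higher without overlap (log2 fold change 1.71, SE 0.09, adjusted p = 3.24e-16). Il34, its other ligand, was near 0 in both groups and not called. It was called lower with limma-voom weights (-3.40, adjusted p = 0.028) and on log2(TPM + 1) (-0.62, adjusted p = 0.042). The receptor chains for GM-CSF and interleukin-3 rose. Csf2ra was at 106 to 209.8 CPM (median 141) in repopulated and 42.1 to 60.5 CPM (median 50.9) in young libraries (log2 fold change 1.52, SE 0.12, adjusted p = 6.34e-12), and Il3ra at 24.4 to 73.8 CPM (median 33.7) in repopulated and 3.2 to 5.49 CPM (median 4.36) in young libraries (log2 fold change 3.25, SE 0.21, adjusted p = 1.17e-13). In all 6 of 8 genes of this group rose and 1 fell, and on log2(TPM + 1) the counts were 3 and 2. Against old microglia 5 were higher (1 with total-count scaling and 1 on log2(TPM + 1)), Il3ra by a log2 of 1.01 (adjusted p = 0.000271), and Csf1 did not pass the test (log2 fold change -0.06, SE 0.08, adjusted p = 0.704) but was called lower on log2(TPM + 1) (-0.31).

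Sensing receptors and ion channels split by gene. Of 13 purinergic and other sensing receptors 3 rose and 5 fell (1 and 8 on log2(TPM + 1)). P2rx4, an ATP-gated channel linked to pain and phagocytosis, was at 121 to 197 CPM (median 151) in repopulated and 84 to 99 CPM (median 93.2) in young libraries, the opposite direction to P2ry12 and P2ry13 (log2 fold change 0.78, SE 0.08, adjusted p = 4.08e-09). Entpd1, the ectoenzyme that removes ATP and ADP, was at 699.9 to 976 CPM (median 935) in repopulated and 1214 to 1548 CPM (median 1468) in young libraries (log2 fold change -0.71, SE 0.08, adjusted p = 5.03e-09). P2rx7 had overlapping groups, at 249 to 356 CPM (median 323) in repopulated and 283 to 325 CPM (median 309) in young libraries, and was not called (log2 fold change 0.03, SE 0.07, adjusted p = 0.776). Of 14 ion channels 5 rose and 2 fell, with a median of 0.16 that turned to -0.17 on log2(TPM + 1), where 3 rose and 6 fell. Kcna3, the potassium channel Kv1.3 of activated microglia, was at 2.01 to 7.26 CPM (median 3.92) in repopulated and 0 to 1.07 CPM (median 0.498) in young libraries, low in both but without overlap (log2 fold change 3.15, SE 0.48, adjusted p = 4.04e-06). Trpm2, a calcium channel opened by oxidative stress, was at 81.2 to 121 CPM (median 97.8) in repopulated and 48.1 to 71 CPM (median 63.2) in young libraries (log2 fold change 0.68, SE 0.09, adjusted p = 5.07e-07), and it was also higher than in old ones (log2 fold change 0.41, SE 0.09, adjusted p = 0.00159), a call lost with total-count scaling and on log2(TPM + 1). Ano6, a lipid scramblase and channel, fell (log2 fold change -0.41, SE 0.07, adjusted p = 4.84e-05).

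**Figure D2:**
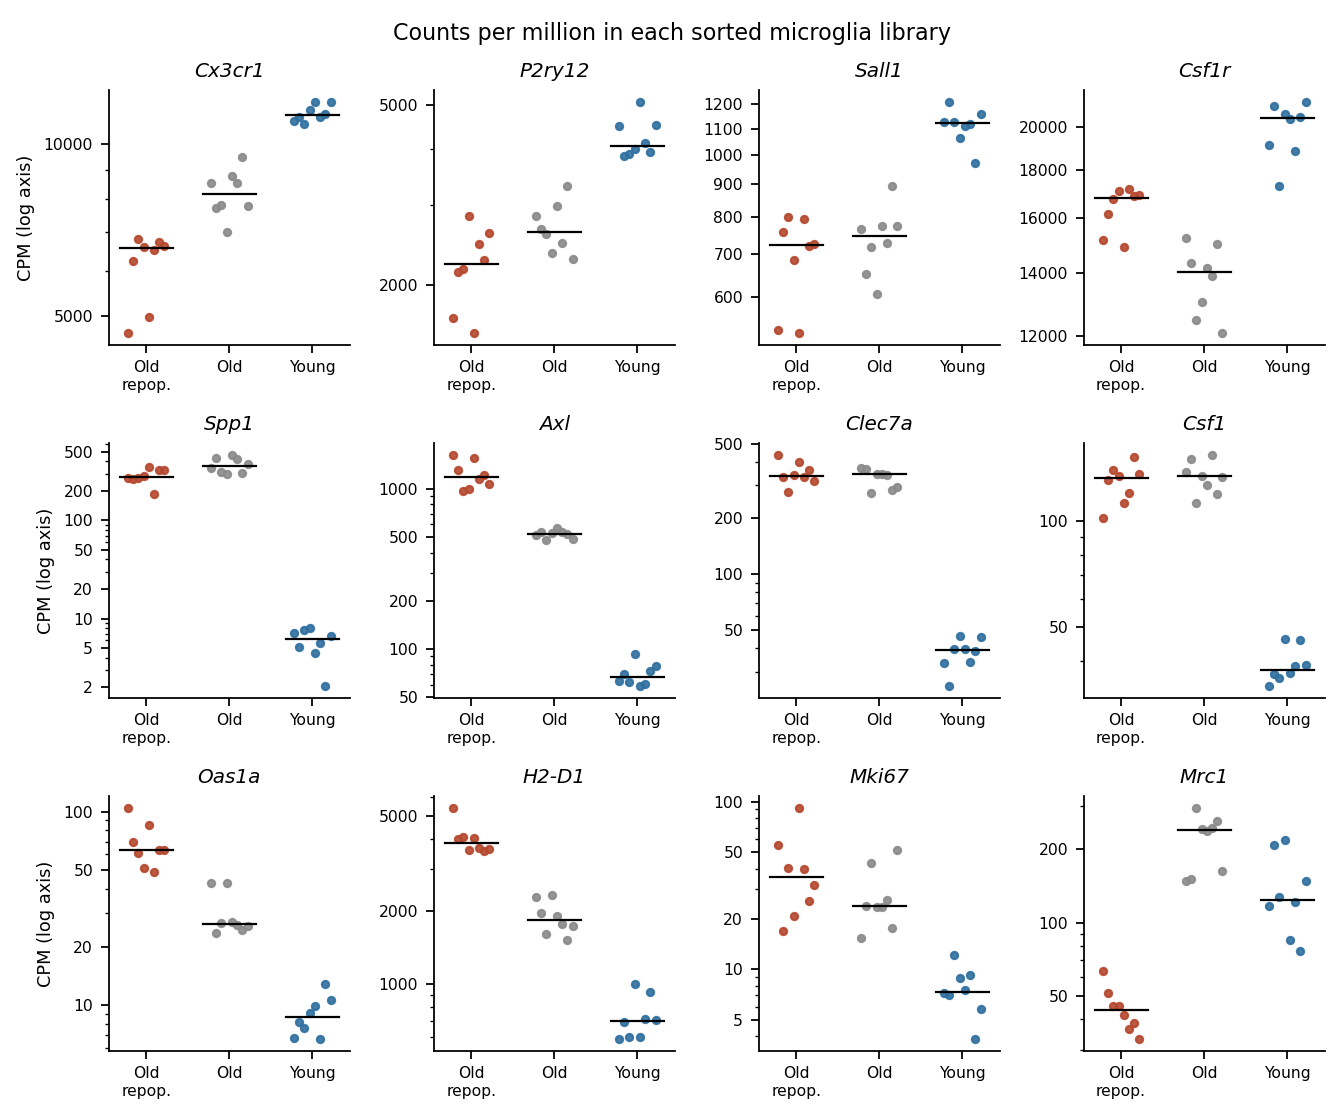
Levels in CPM of 12 genes in each old repopulated, old and young microglia library, on a log axis. Each point is a library and each line the median of 8. Repopulated points lie below the young ones for Cx3cr1, P2ry12, Sall1, Csf1r and Mrc1 and above them for the other 7 genes. For Axl, Oas1a and H2-D1 they also lie above all old ones, and for Mrc1 below them.

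The disease-associated genes stood well above young levels. Of 25 members 23 rose, 15 of them at least 2-fold (6.08% among all genes), with a median of 1.71. Repopulated libraries lay above all young ones for 20 of them. Axl, a receptor tyrosine kinase that takes up apoptotic cells, was at 976 to 1632 CPM (median 1183) in repopulated and 58.7 to 92.7 CPM (median 66.5) in young libraries, 17.7-fold higher (log2 fold change 4.15, SE 0.11, adjusted p = 1.28e-22). It also exceeded the old median of 525 CPM (log2 fold change 1.24, SE 0.10, adjusted p = 3.44e-10). Clec7a, the receptor for beta-glucans, was at 277 to 438.7 CPM (median 337) in repopulated and 25.1 to 46.8 CPM (median 39.2) in young libraries, 9.24-fold higher (log2 fold change 3.21, SE 0.11, adjusted p = 4.83e-20), and did not differ from old by the test (log2 fold change 0.09, SE 0.10, adjusted p = 0.613). Lpl, lipoprotein lipase, was at 147 to 254 CPM (median 204) in repopulated and 31.7 to 43.4 CPM (median 37.2) in young libraries (log2 fold change 2.46, SE 0.10, adjusted p = 7.13e-18). Its old median was higher still at 314 CPM (log2 fold change -0.64, SE 0.10, adjusted p = 1.45e-05). Cst7, an inhibitor of cathepsins, was at 90.5 to 161 CPM (median 118) in repopulated and 7.08 to 13.7 CPM (median 9.37) in young libraries, 12.5-fold higher (log2 fold change 3.65, SE 0.16, adjusted p = 2.49e-17). Apoe, the main lipid carrier of the brain, was at 3330.4 to 7612 CPM (median 4909) in repopulated and 849.7 to 1732 CPM (median 1265) in young libraries, without overlap (log2 fold change 1.89, SE 0.17, adjusted p = 1.73e-10). Trem2, the lipid receptor through which much of this program is switched on, was at 1361 to 1713 CPM (median 1539) in repopulated and 1524 to 2030.0 CPM (median 1633) in young libraries and was not called (log2 fold change -0.12, SE 0.07, adjusted p = 0.237). It was called lower with total-count scaling (-0.25, adjusted p = 0.00254), the length offset (-0.35, adjusted p = 4.99e-05) and on log2(TPM + 1) (-0.44, adjusted p = 9.17e-07). The chemokine Ccl6 was the other member that was not called (log2 fold change 0.18, SE 0.10, adjusted p = 0.18). Against old microglia 5 members were higher and 4 lower (9.05% and 7.2% among all genes), with a median of 0.15. The counts were 5 and 9 with total-count scaling (median -0.02) and 4 and 10 on log2(TPM + 1) (median -0.10).

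The genes induced by type I interferon were all above young levels and mostly above old ones. All 39 tested members rose, 33 of them at least 2-fold, with log2 fold changes from 0.51 to 4.39 and a median of 2.34. Repopulated libraries lay above all young ones for 36 members, against 7.2% of all genes. Isg15 had too few counts to be tested. Ifi204, a sensor of DNA of the p200 family, was at 87.4 to 162 CPM (median 104) in repopulated and 6.86 to 17.2 CPM (median 11.2) in young libraries, 9.72-fold higher (log2 fold change 3.28, SE 0.16, adjusted p = 1.42e-16). Oas1a, which makes the messenger that activates RNase L, was at 48.8 to 105 CPM (median 63.3) in repopulated and 6.65 to 12.8 CPM (median 8.64) in young libraries, 7.66-fold higher (log2 fold change 2.94, SE 0.17, adjusted p = 1.22e-14). Ifit2, which binds foreign RNA, was at 38 to 76.6 CPM (median 52.3) in repopulated and 5.64 to 13.1 CPM (median 7.24) in young libraries (log2 fold change 2.76, SE 0.16, adjusted p = 1.67e-14). Ifi27l2a, a small protein strongly induced by interferon, was at 119 to 488 CPM (median 183) in repopulated and 6.75 to 19.7 CPM (median 10.5) in young libraries, 20.9-fold higher (log2 fold change 4.39, SE 0.29, adjusted p = 1.49e-13). Ifi204 and Oas1a have close relatives beside them in the genome, so the share of reads of each copy is uncertain. Against old microglia 31 members were higher and 0 lower, with a median of 0.77. Ifi27l2a had an old median of 46.6 CPM (log2 fold change 2.16, SE 0.26, adjusted p = 3.21e-07, repopulated against old), and Oas1a 26.3 CPM (log2 fold change 1.20, SE 0.16, adjusted p = 1.99e-06).

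Interferon acts on these genes through a complex that holds Stat2 and Irf9 and binds an element with a pair of GAAA blocks. The core GAAANNGAAA, searched on both strands from 250 bases before to 50 bases after the start in the RefSeq promoters of GRCm38.p6, was present in 18 of the 30 members with an entry (60%), against 3.99% of the 27025 genes of that table. Among MHC class I and peptide loading genes it was present in 4 of 13 (30.8%). Shown here are the windows of the called members that hold it with the smallest adjusted p, with the core in capitals. Overlapping matches form a single run in Oas1a and Bst2, and TTTCNNTTTC is the same core on the other strand. A match is a description of the letters and not evidence of binding.
Oas1a: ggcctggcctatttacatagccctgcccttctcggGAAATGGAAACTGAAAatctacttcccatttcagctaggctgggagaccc
Ifit3: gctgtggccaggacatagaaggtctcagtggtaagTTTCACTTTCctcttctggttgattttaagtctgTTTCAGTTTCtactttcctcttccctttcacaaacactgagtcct
Bst2: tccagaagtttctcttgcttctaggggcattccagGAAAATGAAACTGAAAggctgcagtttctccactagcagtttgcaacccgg
Slfn5: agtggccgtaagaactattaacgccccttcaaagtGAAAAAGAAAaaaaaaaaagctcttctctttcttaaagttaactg
B2m: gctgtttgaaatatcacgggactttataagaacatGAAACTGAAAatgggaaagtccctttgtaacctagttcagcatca
H2-T22: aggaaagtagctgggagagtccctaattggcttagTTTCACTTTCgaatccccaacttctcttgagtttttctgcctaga
The windows lie at chr5:120907496-120907580 (minus strand) for Oas1a, chr19:34583338-34583451 (plus strand) for Ifit3, chr8:71537552-71537637 (minus strand) for Bst2, chr11:82951912-82951991 (plus strand) for Slfn5, chr2:122147513-122147592 (plus strand) for B2m and chr17:36042889-36042968 (minus strand) for H2-T22.

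The signalling genes upstream of this response were mixed. Of 16 tested ligands, receptors and transducers 7 rose and 4 fell, with a median of 0.27. On log2(TPM + 1) 4 rose and 6 fell, with a median of -0.09. Ifnb1 and Ifng, which encode the interferons beta and gamma, had too few reads to be tested. Stat2 was at 59 to 90.7 CPM (median 69.7) in repopulated and 29.9 to 40.7 CPM (median 36.3) in young libraries (log2 fold change 1.01, SE 0.11, adjusted p = 4.65e-09). It is itself induced by interferon, as is Usp18, a brake on the receptor (log2 fold change 2.64, SE 0.19, adjusted p = 1.63e-12). The chains of the interferon gamma receptor went opposite ways, with Ifngr2 higher (log2 fold change 0.38, SE 0.06, adjusted p = 2.34e-06; not called on log2(TPM + 1)) and Ifngr1 lower (log2 fold change -0.39, SE 0.06, adjusted p = 2.35e-06). Among 15 sensors of nucleic acids 8 rose and 2 fell, with a median of 0.30. On log2(TPM + 1) 6 rose and 5 fell, with a median of -0.03. Zbp1, a sensor of Z-form nucleic acid, was at 24.5 to 61.8 CPM (median 28.4) in repopulated and 3.04 to 8.37 CPM (median 5.05) in young libraries (log2 fold change 2.84, SE 0.25, adjusted p = 1.31e-10). Adar, which edits double-stranded RNA, rose without overlap (log2 fold change 0.76, SE 0.08, adjusted p = 1.90e-09) and was also higher than in old (log2 fold change 0.66, SE 0.08, adjusted p = 2.28e-07). Tmem173, the adaptor STING, fell to 616 to 807 CPM (median 729) in repopulated libraries, against 860.4 to 1187 CPM (median 975) in young ones (log2 fold change -0.46, SE 0.07, adjusted p = 2.64e-06), and Tlr7, the receptor for single-stranded RNA, fell with overlapping ranges (log2 fold change -0.33, SE 0.09, adjusted p = 0.00348). Of 14 GTPases induced by interferon gamma 6 rose and 2 fell. Irgm1 was at 75.1 to 109.7 CPM (median 90.2) in repopulated and 40.8 to 54.4 CPM (median 51.3) in young libraries (log2 fold change 0.88, SE 0.08, adjusted p = 2.06e-10), while Irgm2 was lower (log2 fold change -0.42, SE 0.08, adjusted p = 4.99e-05) and Igtp was not called (log2 fold change 0.07, SE 0.08, adjusted p = 0.532).

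Antigen presentation separated by class. Of 16 genes of MHC class I and its peptide loading 11 rose and 2 fell, with a median of 1.54, and on log2(TPM + 1) 10 rose and 5 fell. The summed level of the list was 15386 to 20911 CPM in repopulated libraries and 6434 to 8647 CPM in young ones. H2-D1, a classical class I heavy chain, was at 3549 to 5384 CPM (median 3841) in repopulated and 589.6 to 1001 CPM (median 699.5) in young libraries, 5.47-fold higher (log2 fold change 2.45, SE 0.11, adjusted p = 6.60e-17). H2-K1 was at 1882 to 3054 CPM (median 2015) in repopulated and 436.9 to 678 CPM (median 489) in young libraries, 4.02-fold higher (log2 fold change 2.01, SE 0.11, adjusted p = 5.60e-15). B2m, the light chain of all class I molecules, was at 5003 to 7349 CPM (median 5365) in repopulated and 1482 to 2312 CPM (median 1801) in young libraries (log2 fold change 1.62, SE 0.10, adjusted p = 3.78e-14). H2-Q4, H2-Q6 and H2-Q7 rose by 4.84-fold, 13-fold and 19-fold, but these heavy chain genes are near-identical copies whose reads the counting could have split, so the share of each is uncertain. The loading chaperones Calr and Pdia3 fell slightly (-0.23 and -0.21 on the log2 scale, adjusted p = 0.00255 and 0.00249), and the peptide loading genes Tap2 and Tapbp were not called. Against old microglia 11 members were higher and 0 lower (9 and 4 on log2(TPM + 1)), H2-D1 by a log2 of 1.08 (adjusted p = 2.29e-08). The immunoproteasome, which trims peptides for class I, had 4 of 5 members higher. Psme1, a subunit of the proteasome activator induced by interferon, was at 177 to 324 CPM (median 226) in repopulated and 84.1 to 112 CPM (median 99.5) in young libraries (log2 fold change 1.20, SE 0.10, adjusted p = 7.25e-11), and Psmb10 was not called (log2 fold change 0.10, SE 0.09, adjusted p = 0.443). Of the 14 subunits of the constitutive core 3 rose with a median of 0.13, but 8 were lower on log2(TPM + 1) and 4 with an offset for gene length, so no direction is given for them.

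MHC class II, by contrast, was near its young level with TMM scaling and below its old one. Of 10 genes 3 rose and 0 fell against young, with a median of -0.05, which turned to 0.12 without young replicate 4, and on log2(TPM + 1) the counts were 1 and 5. H2-Aa, the alpha chain of the surface molecule, was at 148 to 529.5 CPM (median 215) in repopulated and 195 to 496 CPM (median 268) in young libraries. The ranges overlapped and the gene was not called (log2 fold change -0.28, SE 0.24, adjusted p = 0.415). Cd74, the invariant chain that guides class II to endosomes, was at 345 to 1166 CPM (median 485) in repopulated and 406.7 to 1130.5 CPM (median 564) in young libraries (log2 fold change -0.23, SE 0.23, adjusted p = 0.51). On log2(TPM + 1) H2-Aa and Cd74 were called lower than in young (-0.68 and -0.60, adjusted p = 0.0129 and 0.0264). With the length offset H2-Aa was called lower as well (-0.61, adjusted p = 0.028). The old median of H2-Aa was 929 CPM (log2 fold change -2.13, SE 0.25, adjusted p = 2.28e-07, repopulated against old) and that of Cd74 1823 CPM (log2 fold change -1.91, SE 0.24, adjusted p = 7.05e-07). Markers of border-associated macrophages and monocytes, which the same sort collects, were also below old, with list medians of -2.06 and -1.04. Of 14 markers each, 12 and 7 were lower and 0 higher. The part of such cells in the class II difference from old was not tested. Repopulated replicate 1 held the highest H2-Aa level of its group. Without it 2 members rose and 2 fell against young, H2-Aa among them (log2 fold change -0.56, adjusted p = 0.0394). H2-DMa, which edits the peptides on class II, rose against young without overlap (log2 fold change 0.62, SE 0.08, adjusted p = 1.21e-07). H2-Oa, part of its inhibitor, rose with overlap (log2 fold change 0.53, SE 0.14, adjusted p = 0.00332) and was not called on log2(TPM + 1) or with the length offset. H2-Ob, the other part, rose with overlap (log2 fold change 0.23, SE 0.09, adjusted p = 0.0446), turned to -0.09 on log2(TPM + 1), and was not called with total-count scaling or without any 1 of repopulated replicates 1, 3, 4, 6 and 8 and young replicates 3 and 8 (0.20 to 0.23).

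Secreted inflammatory factors rose in part. Of 16 tested chemokines 10 rose and 2 fell, with a median of 1.61. Ccl3, which attracts cells through Ccr1, was at 52.8 to 107 CPM (median 77) in repopulated and 20.2 to 34.2 CPM (median 24.2) in young libraries (log2 fold change 1.62, SE 0.13, adjusted p = 7.79e-12). Ccl4 was at 42.2 to 103.2 CPM (median 74.3) in repopulated and 15.6 to 28.3 CPM (median 20.4) in young libraries (log2 fold change 1.78, SE 0.14, adjusted p = 8.85e-12). Cxcl16, a scavenger receptor and ligand of Cxcr6, was at 167 to 248 CPM (median 207) in repopulated and 61.6 to 79.9 CPM (median 67.7) in young libraries (log2 fold change 1.60, SE 0.08, adjusted p = 1.01e-15). Ccl9 and Ccl24 fell (-0.34 and -1.20 on the log2 scale, adjusted p = 0.00358 and 0.00639). In the interleukin-1 family and inflammasome 6 of 15 rose and 2 fell, with a median of 0.15 that turned to -0.18 on log2(TPM + 1). Il1b was at 15.6 to 34.4 CPM (median 22.8) in repopulated and 6.39 to 9.19 CPM (median 7.69) in young libraries (log2 fold change 1.61, SE 0.24, adjusted p = 3.03e-06). Its natural antagonist Il1rn was at 5.78 to 13.4 CPM (median 10.1) in repopulated and 1.04 to 3.05 CPM (median 1.94) in young libraries (log2 fold change 2.28, SE 0.22, adjusted p = 6.65e-10), with an old median of 26 CPM (log2 fold change -1.39, SE 0.21, adjusted p = 9.90e-06). Nlrp3, the sensor of the best-known inflammasome, fell to 60.6 to 81.7 CPM (median 75.1) in repopulated libraries, against 97.8 to 128 CPM (median 114) in young ones (log2 fold change -0.58, SE 0.08, adjusted p = 2.73e-07). Il1a was not called (log2 fold change 0.15, SE 0.13, adjusted p = 0.45).

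Among 16 genes of Tnf and NF-kB signalling 8 rose and 4 fell, and on log2(TPM + 1) the counts were 4 and 5. Tnf was at 13.8 to 49.1 CPM (median 28.1) in repopulated and 3.98 to 13.7 CPM (median 5.87) in young libraries. The lowest repopulated library was just above the highest young one (log2 fold change 2.15, SE 0.27, adjusted p = 1.39e-07). Relb, the subunit of the alternative pathway, rose (log2 fold change 0.77, SE 0.09, adjusted p = 4.73e-08), whereas Rela, the main transactivating subunit, was at 129.8 to 153 CPM (median 137) in repopulated and 183 to 217 CPM (median 193) in young libraries and fell (log2 fold change -0.50, SE 0.06, adjusted p = 7.22e-08). Tnfrsf1b, a Tnf receptor, fell as well (log2 fold change -0.50, SE 0.07, adjusted p = 1.93e-06). Of 15 complement genes 9 rose and 1 fell, with a median of 0.21. On log2(TPM + 1) 5 of 14 rose and 3 fell, with a median of -0.10. C3, the central component, was at 65.4 to 234 CPM (median 121) in repopulated and 8.4 to 24.5 CPM (median 17.9) in young libraries, 7.6-fold higher (log2 fold change 2.93, SE 0.23, adjusted p = 8.94e-12). Cfb, the protease of the alternative pathway, was at 16.4 to 31.4 CPM (median 17.9) in repopulated and 0.377 to 4.55 CPM (median 1.55) in young libraries and also higher than in old (log2 fold change 3.48, SE 0.40, adjusted p = 3.09e-08 against young; log2 fold change 1.99, SE 0.38, adjusted p = 0.000266 against old). C5ar1, the receptor for C5a, fell with overlap (log2 fold change -0.38, SE 0.08, adjusted p = 0.000168). Of 15 genes of Toll-like receptors 5 rose and 5 fell (2 and 8 on log2(TPM + 1)). The number that fell was 3 without any 1 of repopulated replicates 2, 3, 5 and 6 and young replicates 1, 4, 5 and 6. Tlr2, for bacterial lipoproteins, had a median of 500.4 CPM in repopulated and 221 CPM in young libraries, without overlap (log2 fold change 1.15, SE 0.08, adjusted p = 2.71e-13). Tlr5, for flagellin, fell to 4.43 to 22.3 CPM (median 14.3) in repopulated libraries, against 36 to 49.1 CPM (median 43.4) in young ones (log2 fold change -1.66, SE 0.18, adjusted p = 9.50e-09). The shared adaptor Myd88 fell (log2 fold change -0.61, SE 0.07, adjusted p = 4.04e-08), and Cd14 was not called (log2 fold change -0.04, SE 0.07, adjusted p = 0.767).

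Surface receptors for debris and for sialic acid were rearranged rather than raised together. Of 19 tested phagocytic receptors and ligands 8 rose and 4 fell, with a median of 0.11. Total-count scaling gave 6 higher and 7 lower (median -0.02), and log2(TPM + 1) 5 higher and 9 lower (median -0.23). Axl and Mertk, receptors of one family, went opposite ways, since Mertk fell to 395 to 552 CPM (median 515) in repopulated libraries, against 680.0 to 837 CPM (median 782) in young ones (log2 fold change -0.66, SE 0.08, adjusted p = 3.14e-08). Fcgr4, an activating receptor for immunoglobulin G, was at 96.9 to 156 CPM (median 108) in repopulated and 18.5 to 28.6 CPM (median 22.9) in young libraries (log2 fold change 2.25, SE 0.15, adjusted p = 3.75e-13), with an old median of 48.3 CPM (log2 fold change 1.01, SE 0.15, adjusted p = 8.17e-06). Fcgr3, another such receptor, was not called (log2 fold change 0.04, SE 0.06, adjusted p = 0.674). Tyrobp, the signalling adaptor of Trem2, rose (log2 fold change 0.78, SE 0.09, adjusted p = 6.60e-08), but with an offset for gene length its log2 fold change was 0.06 and it was not called. Of 14 Siglecs and sialyltransferases 7 rose and 4 fell, with a median of 0.32. On log2(TPM + 1) 5 rose and 6 fell, with a median of -0.03. St8sia6, which builds disialic acid, was at 76.4 to 114 CPM (median 93.9) in repopulated and 13.4 to 16 CPM (median 14.3) in young libraries, 6.43-fold higher (log2 fold change 2.68, SE 0.09, adjusted p = 9.10e-21). Cd22, an inhibitory Siglec that limits phagocytosis in aged microglia, was at 69.4 to 123 CPM (median 98.8) in repopulated and 20 to 32.7 CPM (median 23.4) in young libraries (log2 fold change 1.98, SE 0.11, adjusted p = 7.72e-15), and did not differ from old by the test (log2 fold change -0.01, SE 0.11, adjusted p = 0.956). Siglece fell (log2 fold change -0.54, SE 0.07, adjusted p = 5.24e-07). Of 14 integrins 8 rose and 3 fell, with a median of 0.28 that turned to -0.04 on log2(TPM + 1). Itgax, the integrin Cd11c, was at 135 to 295 CPM (median 218) in repopulated and 24 to 36.7 CPM (median 29.5) in young libraries (log2 fold change 2.89, SE 0.13, adjusted p = 1.65e-17), while Itga9 and Itgav were lower (-0.58 and -0.57 on the log2 scale, adjusted p = 5.20e-06 and 4.11e-05).

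Lysosomal genes rose broadly. Of 32 members 22 rose and 3 fell, with a median of 0.35, 15 had repopulated libraries all above the young ones, and the summed level was 87418 to 108554 CPM in repopulated and 61221 to 75007 CPM in young libraries. On log2(TPM + 1) the counts were 12 and 10, with a median of 0.03. Npc2, which hands cholesterol on from the lysosome, was at 1255 to 1899 CPM (median 1384) in repopulated and 618 to 796 CPM (median 671) in young libraries, 2.14-fold higher (log2 fold change 1.10, SE 0.09, adjusted p = 9.36e-12). Ctsb, a cysteine protease, was at 6803 to 9546 CPM (median 7562) in repopulated and 4004 to 4673 CPM (median 4249) in young libraries, without overlap (log2 fold change 0.86, SE 0.07, adjusted p = 1.89e-11). Cd63, a tetraspanin of late endosomes, rose (log2 fold change 1.14, SE 0.09, adjusted p = 1.12e-11). The members that fell were Npc1, Tfeb and Tfe3, of which the last 2 encode transcription factors of the lysosomal program (-0.43 and -0.40 on the log2 scale, adjusted p = 7.98e-05 and 9.48e-06). Against old microglia 17 members were higher and 0 lower. Scaling to total counts gave 14 higher and 4 lower there, and log2(TPM + 1) 9 higher and 5 lower. Of 16 subunits of the proton pump that acidifies lysosomes 8 rose and 1 fell, with a median of 0.20. Total-count scaling gave 6 higher and 6 lower, and log2(TPM + 1) 4 higher and 7 lower (median -0.12). Atp6v0a1 was the member that fell with TMM scaling (log2 fold change -0.40, SE 0.06, adjusted p = 6.08e-06). Of 13 iron genes 5 rose and 1 fell, with a median of 0.13. On log2(TPM + 1) 4 rose and 5 fell, with a median of -0.18. Fth1, the heavy chain of the iron store ferritin, was at 2957 to 4904 CPM (median 3287) in repopulated and 1027 to 1529 CPM (median 1269.8) in young libraries, 2.84-fold higher (log2 fold change 1.51, SE 0.11, adjusted p = 1.31e-12), and Slc40a1, the iron exporter ferroportin, fell with overlapping ranges (log2 fold change -0.65, SE 0.09, adjusted p = 8.37e-07).

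Lipid genes rose in part. Of 20 tested genes of lipid uptake, storage and efflux 11 rose and 2 fell. Their median was 0.40, but 0.02 on log2(TPM + 1) and -0.03 on log2(TPM + 0.1). On log2(TPM + 1) 9 rose and 5 fell. Ch25h, which makes 25-hydroxycholesterol, was at 26.6 to 68.8 CPM (median 37.3) in repopulated and 0.411 to 1.8 CPM (median 1.45) in young libraries, 30.7-fold higher (log2 fold change 4.94, SE 0.22, adjusted p = 2.20e-17). Fabp5, a fatty acid binding protein, was at 16.5 to 30.9 CPM (median 23.9) in repopulated and 1.53 to 4.31 CPM (median 2.76) in young libraries (log2 fold change 3.07, SE 0.21, adjusted p = 4.82e-13). Abcg1, a cholesterol exporter, fell (log2 fold change -0.35, SE 0.06, adjusted p = 2.52e-05), and its partner Abca1 was not called (log2 fold change 0.00, SE 0.09, adjusted p = 0.984). Of 21 enzymes and regulators of cholesterol synthesis 5 rose and 0 fell (median 0.30), with 8 higher without repopulated replicate 6. Among all genes 16.1% were higher and 16.5% lower. On log2(TPM + 1) 3 rose and 4 fell (median -0.03). Cyp51, lanosterol demethylase, was at 17.4 to 34.8 CPM (median 29.2) in repopulated and 11.7 to 16.7 CPM (median 15.6) in young libraries (log2 fold change 0.93, SE 0.13, adjusted p = 1.80e-06). Of 18 antioxidant and NADPH oxidase genes 8 rose and 2 fell (median 0.32). On log2(TPM + 1) 5 rose and 8 fell (median -0.05). Cybb, the catalytic chain of the phagocyte oxidase, was at 209 to 516 CPM (median 248) in repopulated and 30.7 to 88.4 CPM (median 55) in young libraries, 5.44-fold higher (log2 fold change 2.44, SE 0.19, adjusted p = 1.14e-11). Ncf1, a cytosolic subunit of the same oxidase, fell with overlap (log2 fold change -0.20, SE 0.06, adjusted p = 0.00709) but was not called with the length offset.

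**Figure D3:**
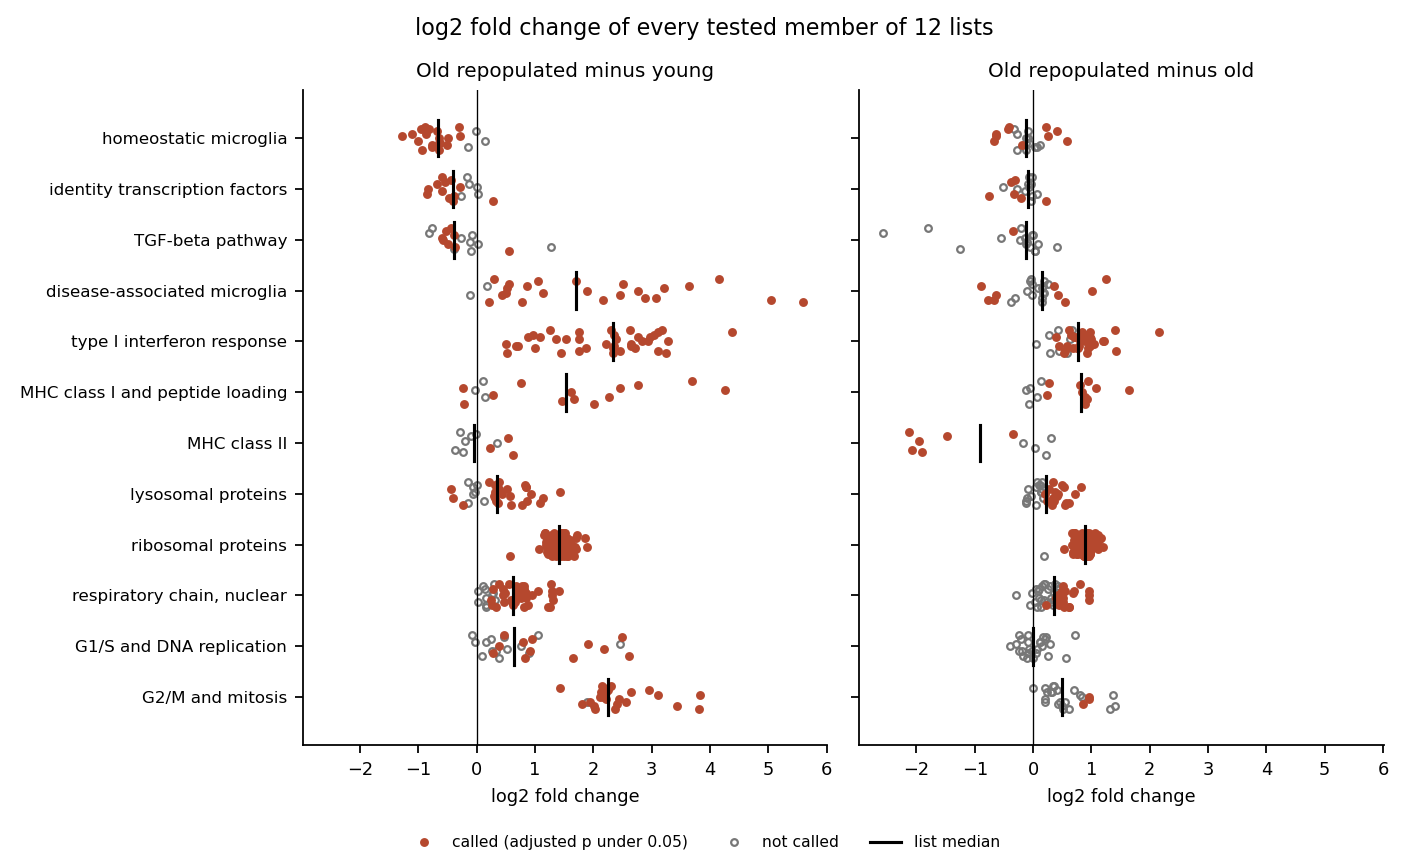
log2 fold change of every tested member of 12 gene lists, old repopulated minus young on the left and old repopulated minus old on the right, with filled points for called genes, open points for the others and a line at the median of each list. The median of the type I interferon list is 2.34 against young and 0.77 against old, that of the disease-associated list 1.71 and 0.15, and that of MHC class II -0.05 and -0.91. Both panels use the same repopulated libraries.

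Genes of the protein synthesis machinery rose together. All 79 ribosomal protein genes rose, by log2 fold changes from 0.58 to 1.89 with a median of 1.41, and 78 had repopulated libraries all above the young ones. They took 5.38% to 6.52% of all counts in repopulated libraries, 2.17% to 4.73% in old and 2.14% to 2.85% in young ones. Rpl3, a protein of the large subunit, was at 1097 to 1651 CPM (median 1327) in repopulated and 410.9 to 520.2 CPM (median 467) in young libraries (log2 fold change 1.55, SE 0.09, adjusted p = 1.31e-14). Many ribosomal protein genes have near-identical processed copies, so the exact share of each is uncertain. Against old microglia 78 of 79 were higher, with a median of 0.89. Of 29 translation factors 22 rose and 0 fell (median 0.79), and on log2(TPM + 1) the counts were 16 and 6. Eef1a1, which brings aminoacyl-tRNA to the ribosome, was at 11336 to 15919 CPM (median 13739) in repopulated and 3861 to 5201 CPM (median 4544) in young libraries, 3.06-fold higher (log2 fold change 1.61, SE 0.09, adjusted p = 7.72e-15). Pabpc1, which binds poly(A) tails, was at 1208 to 1687 CPM (median 1457) in repopulated and 414.2 to 520.1 CPM (median 494) in young libraries (log2 fold change 1.56, SE 0.08, adjusted p = 1.42e-16). Eif4g2, which initiates translation without the cap-binding protein, was not called (adjusted p = 0.971). Of 11 host genes of small nucleolar RNAs, whose products guide the modification of ribosomal RNA, 10 rose and 0 fell, with a median of 2.18. Zfas1 was at 44.7 to 99 CPM (median 69.6) in repopulated and 3.39 to 8.23 CPM (median 5.05) in young libraries, 14-fold higher (log2 fold change 3.81, SE 0.19, adjusted p = 1.81e-16), and Gas5 at 71.3 to 128 CPM (median 114) in repopulated and 24.7 to 31.2 CPM (median 29.4) in young libraries (log2 fold change 1.90, SE 0.12, adjusted p = 5.59e-14). Zfas1 overlaps the start of Znfx1 on the other strand, and these libraries do not keep the strand. Its old median was 11.8 CPM, and repopulated exceeded old libraries by 5.64-fold (adjusted p = 8.49e-11).

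Transcripts of ribosomal proteins and several translation factors begin with a C followed by a run of pyrimidines, the terminal oligopyrimidine tract through which the mTOR kinase controls their translation. A C with at least 5 pyrimidines after it, on the strand of the gene and starting within 5 bases of the annotated start, was present in 26 of 58 ribosomal protein promoters (44.8%) and 4 of 21 of translation factors (19%), against 11.9% of all 27025 genes. The windows of the members with the smallest adjusted p among those that hold it are shown with the run in capitals, from the RefSeq promoters of GRCm38.p6.
Rps6: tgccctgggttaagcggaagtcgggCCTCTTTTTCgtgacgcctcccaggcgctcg
Rps26: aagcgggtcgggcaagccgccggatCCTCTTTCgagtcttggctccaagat
Rpl15: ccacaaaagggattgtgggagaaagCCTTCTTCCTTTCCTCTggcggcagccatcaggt
Eif3f: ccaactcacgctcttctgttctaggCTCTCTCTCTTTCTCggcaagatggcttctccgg
They lie at chr4:86857338-86857393 (minus strand) for Rps6, chr10:128626477-128626527 (minus strand) for Rps26, chr14:18270957-18271015 (minus strand) for Rpl15 and chr7:108934386-108934444 (plus strand) for Eif3f. These 4 genes rose by 2.82-fold, 3.29-fold, 2.94-fold and 3.22-fold in repopulated against young libraries. The counts measure the level of these transcripts and not their translation, and the shares of promoters with a run describe the chosen lists only.

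Genes of energy metabolism were also higher. Of 47 nuclear genes of the respiratory chain 36 rose and 0 fell, with a median of 0.62, and on log2(TPM + 1) 25 and 4 with a median of 0.28. Cox4i1, a subunit of complex IV, was at 309.5 to 511 CPM (median 372) in repopulated and 136 to 175 CPM (median 155) in young libraries (log2 fold change 1.28, SE 0.11, adjusted p = 5.45e-11). Ndufa6, a subunit of complex I, was at 63.7 to 112 CPM (median 82.8) in repopulated and 30.4 to 38.2 CPM (median 33.3) in young libraries (log2 fold change 1.32, SE 0.12, adjusted p = 1.78e-10). Of 11 tested genes of the mitochondrial genome 6 rose and 0 fell, and with an offset for gene length 4 rose and 1 fell. COX1 was at 11045 to 18116 CPM (median 14338) in repopulated and 5293 to 7869.8 CPM (median 6282) in young libraries, without overlap (log2 fold change 1.18, SE 0.11, adjusted p = 3.87e-10). Of 17 genes of glycolysis 12 rose and 1 fell, with a median of 0.53. On log2(TPM + 1) 8 rose and 3 fell, with a median of 0.20. Gpi1, glucose-6-phosphate isomerase, was at 537 to 938 CPM (median 676) in repopulated and 241 to 305 CPM (median 265) in young libraries, 2.58-fold higher (log2 fold change 1.37, SE 0.09, adjusted p = 5.90e-13). Pkm, pyruvate kinase, was at 840.3 to 1019.5 CPM (median 892) in repopulated and 404.7 to 516 CPM (median 453) in young libraries (log2 fold change 1.04, SE 0.07, adjusted p = 7.10e-13). Hexokinases did not rise with them, since Hk1 fell (log2 fold change -0.48, SE 0.08, adjusted p = 2.93e-05) and Hk2 was not called (log2 fold change 0.07, SE 0.05, adjusted p = 0.371).

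Many of these genes have short transcripts, and fold changes varied with gene length across the whole table. When the genes were split by length into 10 equal bins, the 1439 shortest genes (up to 1290 bases) had a median log2 fold change of 0.35, with 471 genes higher and 48 lower. Among the 1439 longest (from 8271 bases) it was -0.13, with 160 higher and 244 lower. The mean gene length of the reads was 3366 to 3654 bases in repopulated and 3656 to 4035 bases in young libraries. With an offset for gene length the medians of these bins were -0.08 and -0.04. The respiratory chain list then had 19 members higher and 5 lower with a median of 0.10, and the ribosomal list 77 higher and 1 lower with a median of 0.87. The type I interferon list kept 39 higher and a median of 2.39. The part of RNA length or quality in these results was not tested further.

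**Figure D4:**
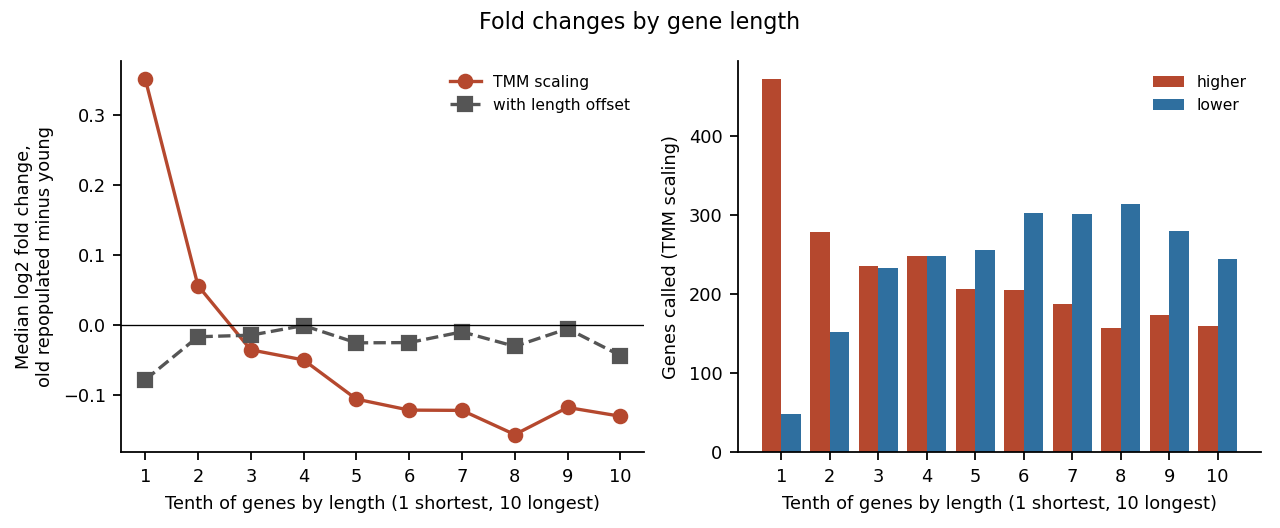
Left, median log2 fold change (old repopulated minus young) of the genes in each of 10 bins by gene length, with TMM scaling and with an added length offset. Right, number of genes called higher and lower in each bin with TMM scaling. The bin of the shortest genes stands apart with a median of 0.35 and 471 genes higher, and with the offset its median is -0.08.

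Cell division genes were higher than in young microglia, with a wide spread between repopulated libraries. Of 25 genes of G2/M and mitosis 24 rose, all of those at least 2-fold, with a median of 2.25, and only Ttk was not called. Mki67, the standard proliferation antigen, was at 16.9 to 92 CPM (median 35.8) in repopulated and 3.85 to 12.3 CPM (median 7.38) in young libraries. The ranges did not overlap, as for 10 of the 25 genes, and the repopulated libraries spread widely among themselves (log2 fold change 2.38, SE 0.29, adjusted p = 9.27e-08). Top2a, which untangles chromosomes, was at 12.3 to 40.1 CPM (median 22.5) in repopulated and 3.29 to 9.06 CPM (median 4.97) in young libraries (log2 fold change 2.22, SE 0.24, adjusted p = 8.45e-09). Bub1b, a kinase of the spindle checkpoint, was at 6.61 to 24.6 CPM (median 9.21) in repopulated and 0.734 to 3.19 CPM (median 2.03) in young libraries (log2 fold change 2.44, SE 0.30, adjusted p = 8.86e-08). The summed level of the list was 103.2 to 526.1 CPM in repopulated and 35.5 to 54.3 CPM in young libraries. Of 26 genes of G1/S and DNA replication 12 rose and 0 fell, with a median of 0.64, and on log2(TPM + 1) 6 rose and 3 fell. Mcm6, of the replicative helicase, was at 20.5 to 40.4 CPM (median 28.5) in repopulated and 12.1 to 18 CPM (median 15.8) in young libraries (log2 fold change 0.91, SE 0.12, adjusted p = 4.10e-07), while Mcm3, of the same complex, was not called (log2 fold change 0.15, SE 0.07, adjusted p = 0.0947). Against old microglia 3 mitotic genes and 0 replication genes were higher (2 and 0 on log2(TPM + 1), where 4 replication genes were lower), and Mki67 had an old median of 23.9 CPM (log2 fold change 0.52, SE 0.28, adjusted p = 0.22). Among all genes 9.05% were higher than in old, so the counts with TMM scaling lay near or under that share.

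Promoters of mitotic genes carry a cell cycle homology region read by the DREAM and MuvB complexes, often beside CCAAT boxes bound by NF-Y. The core TTTGAA, searched on both strands, was present in 16 of 21 G2/M genes (76.2%) and 3 of 21 G1/S genes (14.3%), against 20.2% of all genes of the promoter table. CCAAT, also on both strands, was present in 19 of the 21 G2/M genes (90.5%) and in 12 of 13 genes of MHC class I and peptide loading (92.3%), against 41.1% of all genes. Heavy chain genes among those 13, such as H2-Q4, H2-Q6 and H2-Q7, are related copies and not separate observations. The shares describe the chosen lists and do not depend on the counts of these libraries, and a match is not evidence of binding. Windows of the called members with the smallest adjusted p that hold TTTGAA before the start are shown with that core in capitals, TTCAAA being the same core on the other strand.
Top2a: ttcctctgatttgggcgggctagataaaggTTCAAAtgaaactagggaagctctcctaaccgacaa
Mki67: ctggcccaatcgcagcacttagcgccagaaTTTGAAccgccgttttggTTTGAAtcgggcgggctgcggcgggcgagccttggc
Prc1: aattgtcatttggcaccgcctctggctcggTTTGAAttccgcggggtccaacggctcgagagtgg
They lie at chr11:99024177-99024242 (minus strand) for Top2a, chr7:135716442-135716525 (minus strand) for Mki67 and chr7:80294416-80294480 (plus strand) for Prc1, in the RefSeq promoters of GRCm38.p6. Prc1, which bundles spindle microtubules, was at 4.8 to 11.6 CPM (median 6.96) in repopulated and 0.91 to 2.44 CPM (median 1.68) in young libraries (log2 fold change 2.17, SE 0.27, adjusted p = 1.09e-07) and was also higher than in old (log2 fold change 0.95, SE 0.26, adjusted p = 0.00951).

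Among 18 tested genes of p53 and senescence 9 rose and 2 fell. The members that rose were Cdkn1a, Cdkn2a, Ccng1, Bax, Bbc3, Pmaip1, Phlda3, Lmnb1 and Glb1, and those that fell were Trp53 and Sesn1. Cdkn1a, the cyclin kinase inhibitor p21, was at 42.9 to 94.3 CPM (median 49.3) in repopulated and 13.9 to 22.7 CPM (median 16.2) in young libraries, 3.35-fold higher (log2 fold change 1.74, SE 0.16, adjusted p = 4.77e-10), and above the old median of 29.4 CPM (log2 fold change 0.82, SE 0.16, adjusted p = 0.000406). Glb1, the lysosomal beta-galactosidase whose activity marks senescent cells, was at 223 to 336 CPM (median 273) in repopulated and 138 to 179 CPM (median 168) in young libraries (log2 fold change 0.76, SE 0.08, adjusted p = 5.32e-09). Lmnb1, a lamin that is lost in senescence, was at 19.7 to 42.8 CPM (median 30.4) in repopulated and 8.85 to 10.4 CPM (median 9.51) in young libraries and rose (log2 fold change 1.70, SE 0.15, adjusted p = 2.04e-10). Trp53 itself fell with overlap (log2 fold change -0.31, SE 0.08, adjusted p = 0.00406), and Mdm2, its main negative regulator and target, was not called (log2 fold change 0.11, SE 0.12, adjusted p = 0.561). Of 15 genes of endoplasmic reticulum stress and amino acid response 8 fell and 1 rose, with a median of -0.30. Xbp1, a transcription factor of the unfolded protein response, was at 119 to 213 CPM (median 169) in repopulated and 281 to 331 CPM (median 307) in young libraries (log2 fold change -0.88, SE 0.09, adjusted p = 9.03e-10). Hspa5, the chaperone BiP, was at 736 to 931 CPM (median 781) in repopulated and 1083 to 1419 CPM (median 1149) in young libraries (log2 fold change -0.54, SE 0.07, adjusted p = 2.59e-07). Both were also lower than in old (-0.59 and -0.21 on the log2 scale, adjusted p = 6.96e-06 and 0.0343), but the call of Hspa5 against old was lost with no low-count filter, with limma-voom weights, with the replicate block and without single libraries. Asns, asparagine synthetase, rose (log2 fold change 1.56, SE 0.32, adjusted p = 0.000271).

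Of 22 immediate early and heat shock genes, which dissociation of tissue can induce, 8 rose and 2 fell (5 and 6 on log2(TPM + 1)). Zfp36, which destabilises cytokine transcripts, was at 521 to 1154 CPM (median 804) in repopulated and 390.1 to 505 CPM (median 433.5) in young libraries (log2 fold change 0.84, SE 0.13, adjusted p = 4.59e-06). Ier2 rose too (log2 fold change 0.98, SE 0.16, adjusted p = 1.17e-05), while Jun was not called (log2 fold change -0.18, SE 0.14, adjusted p = 0.374), and Hsph1, a heat shock cofactor, fell with overlap (log2 fold change -0.84, SE 0.20, adjusted p = 0.00103). The number that fell was 4 without repopulated replicate 3 and 1 without young replicate 2 or 5. The part of dissociation in these results was not tested. Of 17 circadian clock genes 1 rose and 4 fell (1 and 8 on log2(TPM + 1)), against 16.1% higher and 16.5% lower among all genes. No direction is given for the list. Bhlhe40, a clock repressor that macrophages use in proliferation, was at 15.7 to 23.9 CPM (median 18.1) in repopulated and 2.75 to 5.53 CPM (median 3.7) in young libraries (log2 fold change 2.31, SE 0.17, adjusted p = 1.82e-12), and Hlf, a clock output factor, was at 2.04 to 7.31 CPM (median 5.16) in repopulated and 11.2 to 19.4 CPM (median 16) in young libraries (log2 fold change -1.80, SE 0.25, adjusted p = 6.62e-07). The core clock gene Clock was not called (log2 fold change -0.37, SE 0.15, adjusted p = 0.0522).

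Among the 12 largest rises, taken first from genes whose ranges did not overlap, was Gpnmb, a lysosomal membrane glycoprotein of lipid-laden macrophages. It was at 18.8 to 39 CPM (median 29.3) in repopulated and 0.068 to 1.95 CPM (median 0.729) in young libraries, 33.2-fold higher (log2 fold change 5.05, SE 0.30, adjusted p = 1.23e-14). Its old median was higher at 44.2 CPM (log2 fold change -0.68, SE 0.23, adjusted p = 0.0456), a call that the DESeq2 Wald test (adjusted p = 0.111), the replicate block (0.0743) and leaving out any of 10 single libraries (0.0527 to 0.101) did not keep. Lox, lysyl oxidase, which crosslinks collagen, was at 23 to 33.5 CPM (median 26) in repopulated and 0.252 to 3.05 CPM (median 1.04) in young libraries, 21.1-fold higher (log2 fold change 4.40, SE 0.28, adjusted p = 8.09e-14). Rxrg, a retinoid X receptor, was at 11.6 to 23 CPM (median 16.8) in repopulated and 0.646 to 2.01 CPM (median 0.864) in young libraries (log2 fold change 4.02, SE 0.21, adjusted p = 1.03e-15). Ass1, argininosuccinate synthase of the arginine cycle, was at 13.9 to 31.5 CPM (median 17.6) in repopulated and 0.647 to 3.78 CPM (median 1.14) in young libraries (log2 fold change 3.77, SE 0.29, adjusted p = 5.96e-12). Neither Lox, Rxrg nor Ass1 was called against old, but Lox was higher there with limma-voom weights (log2 fold change 0.51, adjusted p = 0.00524). Acp5, the tartrate-resistant phosphatase of osteoclasts, was at 1.77 to 169 CPM (median 6.98) in repopulated and 0.251 to 1.4 CPM (median 0.949) in young libraries (log2 fold change 5.23, SE 0.84, adjusted p = 8.41e-06). Without repopulated replicate 5, the highest, the log2 fold change was 3.92. The next highest library stood at 57.7 CPM, so more than 1 library sets the size. Cxcl13, the B cell chemokine, was at 14.4 to 99.1 CPM (median 26.8) in repopulated and 0.034 to 1.19 CPM (median 0.124) in young libraries (log2 fold change 7.42, SE 0.52, adjusted p = 7.90e-13), and without young replicate 7 the value was 8.46.

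Among the 12 largest falls, taken first from genes whose ranges did not overlap, was Sema4b, a membrane semaphorin. It was at 6.18 to 15.1 CPM (median 10.1) in repopulated and 74.1 to 91.8 CPM (median 85.6) in young libraries, 8.41-fold lower (log2 fold change -3.07, SE 0.16, adjusted p = 8.43e-16). The old median was 45 CPM, so repopulated microglia were lower than old ones as well (log2 fold change -2.12, SE 0.16, adjusted p = 9.38e-11). Sema6d, another semaphorin, was at 2.95 to 13.4 CPM (median 4.84) in repopulated and 20.6 to 36.6 CPM (median 31.2) in young libraries (log2 fold change -2.45, SE 0.27, adjusted p = 1.56e-08). Tmem204, a claudin-like membrane protein, was at 5.02 to 13.7 CPM (median 9.62) in repopulated and 52.6 to 67.6 CPM (median 57.9) in young libraries (log2 fold change -2.64, SE 0.15, adjusted p = 5.60e-15). Gpr165, an orphan receptor, was at 4.03 to 19.7 CPM (median 12.5) in repopulated and 80.5 to 128 CPM (median 98.9) in young libraries, 8.52-fold lower (log2 fold change -3.09, SE 0.27, adjusted p = 6.74e-11). Nrarp, a feedback inhibitor of Notch signalling, was at 1.81 to 4.48 CPM (median 2.77) in repopulated and 11.6 to 16.9 CPM (median 13.6) in young libraries (log2 fold change -2.26, SE 0.19, adjusted p = 5.26e-11). Klhdc8b, a kelch domain protein needed for the end of cell division, was at 8.32 to 15 CPM (median 11.4) in repopulated and 47.5 to 74.5 CPM (median 58.2) in young libraries (log2 fold change -2.41, SE 0.13, adjusted p = 1.63e-15). All 6 were also lower than in old, with log2 fold changes of -2.12, -1.37, -1.59, -0.90, -1.72 and -1.25 in that order. The other falls of the top 12 were Ccdc162, Rgs7bp, Angptl7, Fgf11, Mmp28 and Myo18b, by 12-fold, 11.7-fold, 5.47-fold, 5.2-fold, 5.18-fold and 5.09-fold. Without repopulated replicate 8 the log2 fold change of Ccdc162 was -4.31 instead of -3.58.

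Per length, the most abundant transcripts of repopulated microglia encoded lysosomal proteases and their inhibitor, complement and a mitochondrial enzyme. Cst3, the secreted cysteine protease inhibitor cystatin C, averaged 32017 ± 5186 TPM in repopulated and 62049.7 ± 2133 TPM in young libraries (SD, n = 8 each). In the count test it fell (log2 fold change -0.64, SE 0.08, adjusted p = 6.69e-08). Ctsd, the lysosomal aspartic protease, averaged 26074 ± 2117 TPM in repopulated and 24124 ± 665 TPM in young libraries (SD, n = 8 each). It rose in the count test (log2 fold change 0.44, SE 0.07, adjusted p = 7.29e-06), a call that was lost on log2(TPM + 1). Ctss, a cysteine protease that cleaves the invariant chain, averaged 16567 ± 1316 TPM in repopulated and 12048 ± 753 TPM in young libraries (SD, n = 8 each) and rose without overlap in counts (log2 fold change 0.78, SE 0.07, adjusted p = 1.64e-10). C1qa, a chain of complement C1q, averaged 15248 ± 1392 TPM in repopulated and 16727 ± 701 TPM in young libraries (SD, n = 8 each). Its count test gave a small rise with overlapping ranges (log2 fold change 0.18, SE 0.07, adjusted p = 0.0451), which turned to -0.14 on log2(TPM + 1) and -0.08 with the length offset. The call was also lost with total-count scaling, with no low-count filter (adjusted p = 0.0752), with the replicate block (adjusted p = 0.0654) and without any 1 of repopulated replicates 1, 3, 7 and 8 and young replicates 3, 4, 6 and 8 (0.17 to 0.19). The mitochondrial COX1 and the unnamed locus LOC101056014 completed the most abundant 6.

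Markers of other cells moved with the comparison. Among 14 markers of border-associated macrophages, which the same sort collects, 11 fell and 2 rose, with a median of -1.31. Mrc1, the mannose receptor, was at 33.2 to 63 CPM (median 43.6) in repopulated and 76.5 to 218 CPM (median 124) in young libraries, without overlap (log2 fold change -1.63, SE 0.19, adjusted p = 2.38e-08), and had an old median of 240.1 CPM (log2 fold change -2.29, SE 0.19, adjusted p = 5.43e-10). Cd163, the haemoglobin scavenger receptor, was at 0.134 to 10.5 CPM (median 5.93) in repopulated and 12.7 to 39.6 CPM (median 21.7) in young libraries (log2 fold change -2.19, SE 0.38, adjusted p = 3.09e-05). The summed level was 876 to 1331 CPM in repopulated and 1126 to 1761 CPM in young libraries. The members that rose were Siglec1, which interferon also induces (log2 fold change 2.42, SE 0.26, adjusted p = 9.72e-09), and Ms4a7 (log2 fold change 0.91, SE 0.18, adjusted p = 0.000225), and Folr2 was not called. Ms4a7 is also on the list of marrow-derived transcripts. Against old microglia 12 of the 14 were lower. Depletion of these cells by the inhibitor and lower levels within them cannot be told apart.

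Most markers of blood-borne myeloid cells rose against young, and against old libraries 7 of 14 monocyte and 12 of 14 neutrophil markers were lower, with 10 of the monocyte markers under total-count scaling. Of 14 monocyte markers 10 rose and 0 fell against young, with a summed level of 369 to 856 CPM in repopulated, 653 to 1669 CPM in old and 118 to 305 CPM in young libraries. Chil3, a chitinase-like protein of monocytes and neutrophils, was at 37.6 to 166 CPM (median 73.2) in repopulated and 9.52 to 35.6 CPM (median 25.5) in young libraries (log2 fold change 1.69, SE 0.27, adjusted p = 7.00e-06). Ccr2, the defining monocyte chemokine receptor, was at 19.3 to 82.8 CPM (median 26.5) in repopulated and 14.3 to 38.2 CPM (median 20.4) in young libraries and was not called (log2 fold change 0.52, SE 0.31, adjusted p = 0.225). Of 14 neutrophil markers 13 rose and 0 fell against young, and the summed level was 916 to 4051 CPM in repopulated, 2302 to 9759 CPM in old and 254 to 1126 CPM in young libraries. Ngp, a neutrophil granule protein, was at 193 to 933 CPM (median 333) in repopulated and 48.6 to 225 CPM (median 118) in young libraries, with overlap (log2 fold change 1.61, SE 0.33, adjusted p = 0.000213). Repopulated replicate 3 had the highest neutrophil sum of its group. Of 10 transcripts described in marrow-derived macrophages of the brain 6 rose and 1 fell against young, while 0 were higher and 5 lower than in old. Ms4a6c was at 58.8 to 171 CPM (median 73.5) in repopulated and 34.3 to 47.7 CPM (median 37.8) in young libraries (log2 fold change 1.25, SE 0.20, adjusted p = 8.34e-06). Lyz2, a lysozyme of myeloid cells, was at 744 to 1781 CPM (median 1053) in repopulated and 413.5 to 769 CPM (median 496) in young libraries, with overlap (log2 fold change 1.05, SE 0.16, adjusted p = 5.58e-06), and had an old median of 1774 CPM. The part of these cells in the rises of C3, Il1b, Cybb and other genes they carry was not tested.

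**Figure D5:**
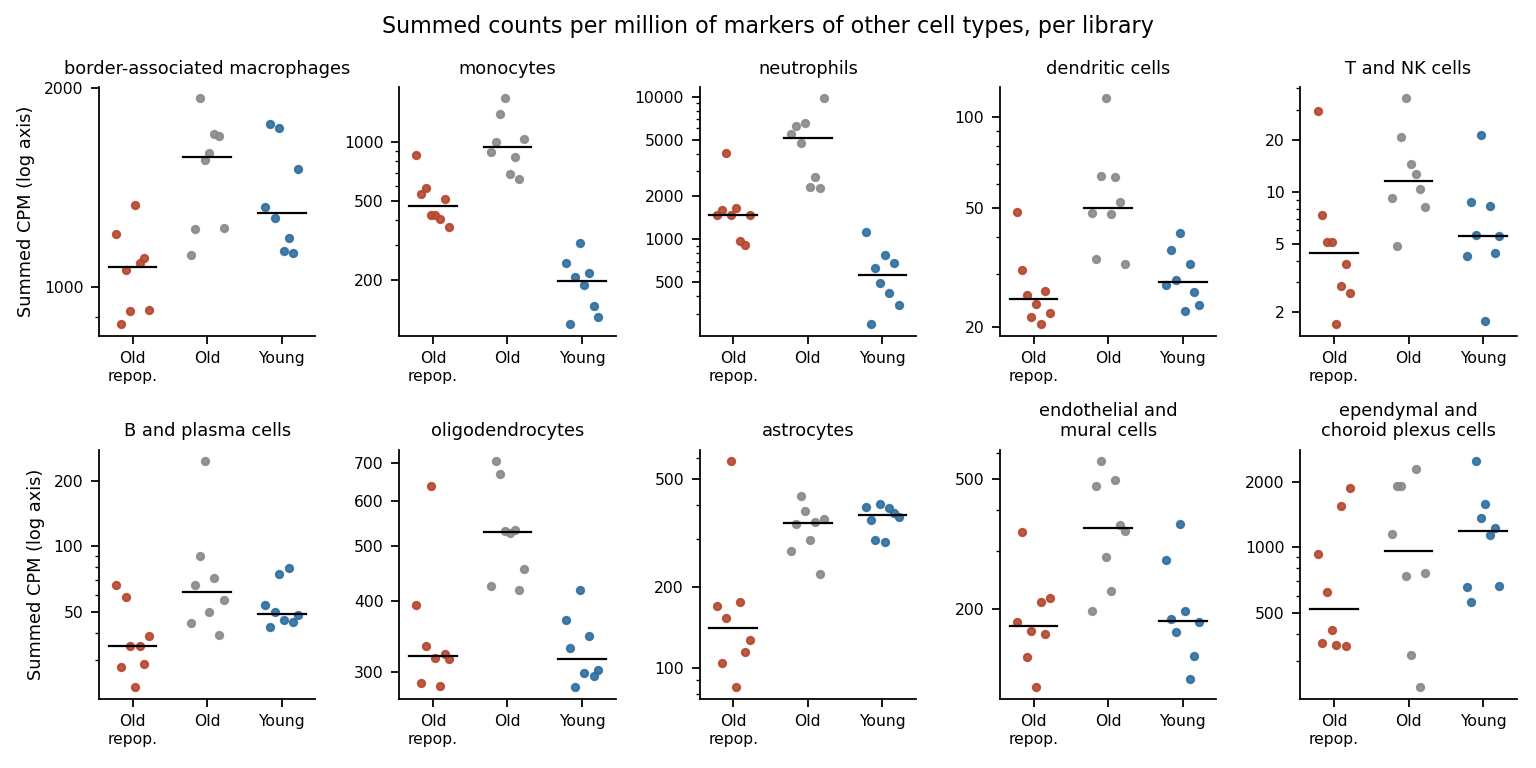
Summed CPM of the marker lists of 10 other cell types in each old repopulated, old and young library, on a log axis, with a line at the median of each group. Medians of the neutrophil and monocyte sums of repopulated libraries lie between those of old and young libraries, and the astrocyte sum of repopulated replicate 4 stands apart from the other 7 at 583 CPM.

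Markers of other brain cells changed in few members in counts, and in more under some alternatives. Among all genes 16.1% were higher and 16.5% lower, and the counts with TMM scaling in this paragraph lay near or under those shares. Of 10 astrocyte markers 1 rose and 2 fell, and the summed level was 84.7 to 583 CPM in repopulated and 293 to 405.1 CPM in young libraries. The highest repopulated value belongs to replicate 4, without which 0 rose and 6 fell. With limma-voom weights and with the replicate block 5 fell, and on log2(TPM + 1) 6 astrocyte, 4 oligodendrocyte and 5 endothelial and mural markers fell. Slc1a3, a glutamate transporter of astrocytes, was at 41.8 to 152 CPM (median 64) in repopulated and 153 to 184 CPM (median 178) in young libraries (log2 fold change -1.17, SE 0.15, adjusted p = 2.83e-07). Of 14 oligodendrocyte markers 1 rose and 0 fell, the riser being Cspg4, a proteoglycan also made by pericytes (log2 fold change 3.64, SE 0.29, adjusted p = 9.78e-12), and without replicate 4 the counts were 1 and 5. The neuron count of lower markers was 2 without it. Mbp, a myelin protein, was at 69.1 to 135 CPM (median 86.2) in repopulated and 63.2 to 131 CPM (median 87.1) in young libraries and was not called (log2 fold change -0.04, SE 0.16, adjusted p = 0.886). Of 13 endothelial and mural markers 2 rose and 1 fell, with 4 lower without repopulated replicate 2 and 3 without replicate 4, and the one that fell was Pecam1, which microglia also transcribe, at 3.36 to 24.6 CPM (median 15.3) in repopulated and 54 to 71.7 CPM (median 63.8) in young libraries (log2 fold change -2.12, SE 0.21, adjusted p = 2.09e-09). Neurons had 0 of 9 markers higher and 0 lower, ependymal and choroid plexus cells 0 and 0 of 8, and mast cells and basophils 0 and 0 of 5. Dendritic cells had 1 higher and 1 lower of 8, T and NK cells 0 and 1 of 7, B and plasma cells 0 and 1 of 8, and red blood cells and platelets 1 and 0 of 6. With single libraries left out the number of higher red cell and platelet markers lay between 0 and 3. Summed T and NK markers reached 1.7 to 29.6 CPM in repopulated and 1.79 to 21.4 CPM in young libraries, with Cd3d, Cd3e and Cd3g below the level tested.

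The number of genes called stayed near 4698 without any 1 of the libraries whose marker sums stood apart. Leaving out 1 library does not test the part of other cells, since monocyte sums of all repopulated libraries lay above those of all young ones. When repopulated replicate 3 was left out, 4640 genes were called in repopulated against young microglia, 2403 higher and 2237 lower. Without repopulated replicate 4 there were 4772, with 2442 higher and 2330 lower, and without repopulated replicate 1, which had the highest monocyte sum, 4323, with 2125 higher and 2198 lower.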

How the data were processed

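Read counts per gene, deposited by the authors as 1 table for all libraries, were used as deposited. Per the submitters' processing notes STAR 2.5.2b and the build GRCm38.p5 were used. No source names the counting tool or annotation. The authors also deposited TPM values, used here as levels per length and in 2 alternatives, and FPKM values, which were not used. Per the labels' protocols, brains of perfused mice were dissociated, cells carrying Cd11b and Cd45 were collected by flow cytometry, and poly(A) libraries were made with a kit that does not keep the strand, so genes that overlap on opposite strands cannot be told apart.

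Counts of all 24 microglia libraries were scaled by TMM and tested by quasi-likelihood (edgeR 4.0.16, R 4.3.3) after filterByExpr with a minimum count of 10 and a minimum total of 15, which left 14382 of 35870 genes. Repopulated was contrasted with young and with old, with Benjamini-Hochberg adjustment over all genes tested and a threshold of 0.05. Alternatives were DESeq2 size factors and the DESeq2 1.42.0 Wald test, total-count scaling, other filters, limma 3.58.1 voom, log2(TPM + 1) and log2(TPM + 0.1) for genes with a mean of at least 0.5 TPM, a replicate block, the 16 libraries alone, an offset for gene length and each library left out. Scripts were tested on simulated data.

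The members and the 55 gene lists were chosen with earlier results of these data known. Of their 973 entries 4 matched no gene, and 51 genes stand in more than 1 list. Named genes are the 12 largest rises and falls with a mean of at least 5 CPM, the members of each list with the smallest adjusted p, up to 4 in all and up to 2 in the minority direction, up to 2 abundant members that were not called, a panel of 12 genes and the 6 highest by TPM. B2m, Rps6, Rps26 and Rpl15 were added with their promoters, after their values were seen. A few genes that this choice names are not reported here. Promoters and positions come from RefSeq for GRCm38.p6. Replicate numbers do not pair the samples, since deviations of libraries with the same number correlated between -0.053 and 0.107, with 1 of 8 over 0.1. No 2 libraries of a group agreed within sampling noise in 84 pairs. Counting error is small for genes with many reads, and there the spread between libraries sets the precision. It is not small for genes with few reads in a group, such as Cxcl13, Gpnmb and Kcna3 in young libraries. The size of their fold changes is uncertain.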

Additional observations from a re-analysis of the deposited data

Results flagged for a closer look

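In 84 tests of a single library against the other 7 of its group, 13 found a library far from the rest, and chance gives about 1 in 20. In repopulated microglia Acp5 stood at 169 CPM in replicate 5, with the nearest of the others at 57.7 CPM. H2-Q7 stood at 169 CPM in replicate 1, with the nearest at 106 CPM. H2-Aa stood at 530 CPM in the same replicate 1, against 264 CPM, and Mbp at 135 CPM, against 95.2 CPM. Ccdc162 stood at 3.21 CPM in replicate 8, with the nearest at 1.09 CPM, and Sema6d at 13.4 CPM in replicate 4, with the nearest at 5.2 CPM.

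In young microglia the ribosomal protein share was 2.85% in replicate 7, with the nearest at 2.46%, and Cxcl13 was 1.19 CPM in the same library, against 0.2 CPM. H2-Aa was 496 CPM in replicate 4, with the nearest at 310.1 CPM, Ifi27l2a 19.7 CPM, against 12.5 CPM, and Ass1 3.78 CPM, against 2.02 CPM. Myo18b was 55.1 CPM in replicate 3, with the nearest at 40.7 CPM. Ch25h was 0.411 CPM in replicate 5, the lowest of its group, with the nearest at 1.27 CPM. H2-Aa is the gene for which a library stood apart in both groups.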

How the results depend on the processing

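The number of genes called in repopulated against young microglia stayed within 1.5 times 4698 under the count-based alternatives and lay between 4290 and 4772 with single libraries left out, 2125 to 2442 of them higher and 2017 to 2334 lower. On log2(TPM + 1) it was 7325 and on log2(TPM + 0.1) 7370, with 1217 and 1209 higher and 6108 and 6161 lower, and total-count scaling gave 3735 lower. The share of calls that were higher was 49.4%, 31.8% with total-count scaling and 16.6% and 16.4% on the TPM scales. Of the 4698 calls 3553 were also called on log2(TPM + 1) and 273 changed sign there. Against old microglia the count was 2336, 2009 to 2599 with libraries left out, 3371 with total-count scaling and 4715 and 4624 on the TPM scales. The share of these calls that were higher was 55.7%, 17.6% with total-count scaling and 10.7% and 10.6% on the TPM scales. The alternatives for lists and named genes against old were chosen after seeing the data. The cause of the shift between counts and TPM was not tested. With the replicate block 4610 genes were called, and 1 of 8 repopulated and 1 of 8 young libraries correlated best with its own number. On log2(TPM + 1) and log2(TPM + 0.1) these named genes turned: Sparc -0.18 and -0.18, Bhlhe41 -0.039 and -0.040, Irf8 -0.29 and -0.30, Ms4a6b -0.35 and -0.35, Skil -0.29 and -0.30, P2rx7 -0.29 and -0.29, Kcnk6 -0.31 and -0.31, Clic1 -0.15 and -0.15, Igtp -0.24 and -0.25, Tapbp -0.21 and -0.21, Tap2 -0.18 and -0.18, Psmb10 -0.21 and -0.21, Psmb4 -0.075 and -0.075, Psmb6 -0.18 and -0.18, Psma1 -0.26 and -0.26, H2-Ob -0.095 and -0.10, Gsdmd -0.19 and -0.20, C3ar1 -0.21 and -0.21, Fcgr3 -0.27 and -0.27, Abca1 -0.32 and -0.32, Hk2 -0.25 and -0.25, Uqcrc1 -0.29 and -0.29, Eif3c -0.16 and -0.16, Mcm3 -0.17 and -0.17, Rrm1 -0.22 and -0.23, Cnp -0.18 and -0.18, C1qa -0.14 and -0.14. With the length offset Psmb4 turned to -0.12, C1qa to -0.084, ND6 to -0.55 and Batf3 to -0.52. Counts of 5 or fewer in a list, such as the lower marrow-derived and clock genes, moved with single libraries.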
